A study of Mus musculus with 4 samples.

Results

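The 8 genes described here belong to the extrinsic death pathway and were read from a list of N6-methyladenosine (m6A) peaks in mouse natural killer (NK) cells, namely the ligands Fasl and Tnfsf10, the receptors Fas and Tnfrsf10b, the adaptor Fadd, the kinase Ripk1, the protease Casp8 and its inhibitor-like relative Cflar. They were chosen by symbol, and a peak was counted for a gene when the list assigned it to that gene's Ensembl identifier. Of the 8 genes, 7 had a peak and Tnfrsf10b had none, and together they held 15 of the 20727 distinct peaks. The share of all annotated protein-coding genes with a peak was 46.3%. The list was made from poly(A) RNA of NK cells sorted from the spleens of mice with a C57BL/6 background. Neither the sample labels nor the methods for these libraries state the genotype. The animals had first been given the plasmid pLIVE-IL-15, from which the cytokine IL-15 is made, to amplify NK cells in vivo. Fragments bound by an m6A antibody (2 immunoprecipitate libraries) were set against untreated fragments taken without immunoprecipitation (2 input libraries). The study's methods give an age of some weeks for its mice in general, and for these libraries a plasmid treatment of a month or more. The sample labels name no second cell state or genotype. Fold enrichment, the ratio of immunoprecipitate to input reads that the peak caller gave, and log10 p, its unadjusted p-value on a log scale, were given once per peak for all libraries. There were 0 columns with a value per library, so the values below have no replicate error, the depth behind them is unknown, and neighbouring values were compared without a test.

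Death ligands on one cell bind trimeric receptors on another. Fas ligand (Fasl) engages Fas and TRAIL (Tnfsf10) engages TRAIL-R2 (Tnfrsf10b), and the death domains of the receptors recruit the adaptor Fadd, which brings in caspase-8. Cflar (c-FLIP) competes with caspase-8 for Fadd and sets whether it becomes active, and Ripk1 is the kinase at which survival signalling, apoptosis and necroptosis part. NK cells use Fasl and Tnfsf10, beside perforin and granzymes, to kill target cells, and their own Fas makes them open to the same signal. m6A is written by the Mettl3 and Mettl14 methyltransferase on adenosines within the DRACH consensus, is found mostly near stop codons and in 3' UTRs, and is bound by YTH family readers that act on RNA decay and translation.

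The transcript sequences below lie around the DRACH site nearest the centre of each peak that held one, and are shown to place the enriched stretches on the messages. They are read 5′ to 3′ on the strand of the gene from the GRCm38 genome, and capitals mark the DRACH match at the middle of each stretch. Other matches in the same stretch, as in Fasl peak 2 and Cflar peaks 2 and 3, stay in lower case. A second site is shown for Ripk1 and for Casp8 because it carries GGAC, the 4 bases most often seen at methylated sites. The only other GGAC site within a peak, in Cflar peak 1 at 58716710 to 58716714, lies just upstream of the stretch shown for that peak and is not printed. The stretch of Fasl peak 2 holds a GGAC in lower case that crosses the downstream end of the peak and is not counted.
Fasl peak 1, chr1:161781481-161781509, minus strand: agagtcttcttaAGACCtattgagattaa
Fasl peak 2, chr1:161781337-161781365, minus strand: gaaggaggtctgTGACTgagggacataaa
Fasl peak 3, chr1:161780934-161780962, minus strand: atgtatgagagcAAACAgattctaaggag
Tnfsf10 peak 2, chr3:27339449-27339477, plus strand: ttttcagttgtgAGACAtgaaaatcttag
Fas peak 1, chr19:34309219-34309247, plus strand: atgtcaaacgatTGACAtacttatggaga
Fadd peak 1, chr7:144578366-144578394, minus strand: cagttttgccctGAACAcctcagcatcaa
Ripk1 peaks 2 and 3, chr13:34034999-34035027, plus strand: agatggccaccaGAACActgaaggcctga
Ripk1 peak 2, GGAC site, chr13:34034934-34034962, plus strand: gcagaatgcagtGGACTggggtacaagtc
Casp8 peak 2, chr1:58801132-58801160, plus strand: agagagctaacgAAACTgaatttattagt
Casp8 peak 2, GGAC site, chr1:58801537-58801565, plus strand: cctccgaaggcaGGACTtaagctttaaga
Cflar peak 1, chr1:58716727-58716755, plus strand: tggttgaaatttTAACTcaagccaagcca
Cflar peak 2, chr1:58722908-58722936, plus strand: tggcttggctacTGACAgccatgactgag
Cflar peak 3, chr1:58756604-58756632, plus strand: ctgacctcgaacTAACTctctctctctct

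The 15 peaks had a lower median fold than the list as a whole. The fold enrichments ran from 1.19 in Fasl to 19.0 in Fas with a median of 2.05, against a median of 2.66 over all peaks and 2.37 over the peaks of protein-coding genes. A fold enrichment of at least 5 was reached by 2 of the 15, 1 in Fas and 1 in Casp8, and by 34.6% of all peaks. Counted by gene these were 2 of 8, and 20.1% of all annotated protein-coding genes had such a peak. A p-value under 0.001 was given to 8 of the 15, against 61.5% of all peaks. Fasl, Ripk1 and Cflar had 3 peaks each, and 19.7% of the protein-coding genes with a peak had 3 or more. Of the 15, 11 were labelled 3' UTR in the list, where 53.3% of all peaks carried that label. A centre could be set on the gene's longest coding transcript for 10 of the 15. All 10 centres lay in the 3' UTR and 0 in the coding sequence, against 56.5% and 33.5% of the 15721 peaks of all genes that could be placed. These 10 peaks, of Fasl, Tnfsf10, Fadd, Ripk1 and Cflar, had fold enrichments of 1.19 to 3.48. Their median was 1.77, against 2.02 over the 8885 peaks centred in any 3' UTR. A fold of 5 was reached by 0 of the 10 and by 1638 of the 8885. The other 5, of Fas, Casp8 and Cflar, had 2.05 to 19.0 with a median of 3.79. The 3 highest folds stood on RNA outside the longest coding transcripts, and the ranges overlapped between 2.05 and 3.48. Over the whole list the peaks were split by the exons of any coding isoform. Peaks of protein-coding genes off every exon of a coding isoform had a median of 5.69, and those on such an exon 2.24. By that rule the Fas peak counts as on a coding isoform, so the 2 splits are not like for like.

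**Figure D1:**
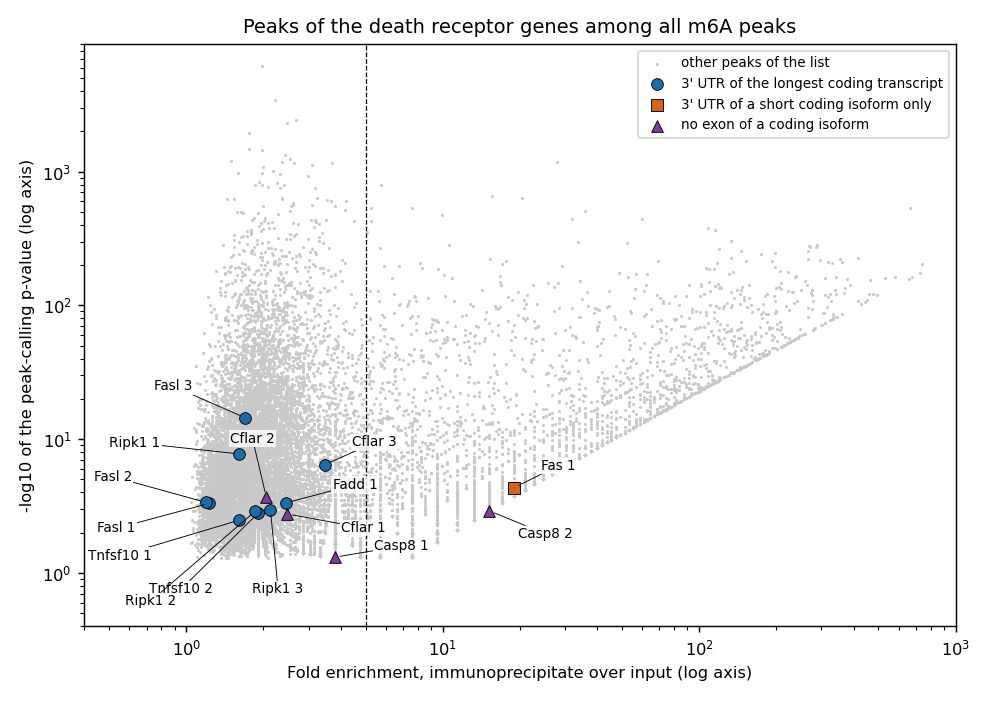
Fold enrichment (horizontal, log scale) against significance as −log10 p (vertical, log scale) of the 15 peaks of the death ligand, receptor and caspase genes, with colour and shape for the kind of transcript each lies on, over the other listed peaks in grey. Fas peak 1 at 19.0 and Casp8 peak 2 at 15.2 are the 2 peaks past a fold of 5 (dashed line), and Fasl peak 3 has the strongest significance of the 15 with a log10 p of -14.5.

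Fasl encodes the membrane ligand that cytotoxic lymphocytes put on their surface to kill Fas-bearing cells. On the minus strand of chromosome 1 (ENSMUSG00000000817, positions 161780689 to 161788495), its transcript Fasl-201 has 1937 nt in 4 exons, 279 codons and a 3' UTR of 887 nt. Its 3 peaks lay 1 after the other along that 3' UTR. Fasl peak 1 (161781493 to 161781553) began 23 nt past the stop codon and ended at 83 nt and was enriched 1.23-fold at a log10 p of -3.31. Fasl peak 2 (161781344 to 161781434) covered 142 to 232 nt past the stop, enriched 1.19-fold at a log10 p of -3.37. Fasl peak 3 (161780808 to 161781195) covered 381 to 768 nt, up to 119 nt before the end of the transcript and was enriched 1.69-fold at a log10 p of -14.5. All 3 folds were low for the list, with 2.51%, 1.48% and 23.0% of all peaks lower, while the significance of the third was passed by only 18.3% of all peaks.

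The Fasl peaks together covered 540 nt, or 60.9% of the 3' UTR, the largest share among the genes with a placed peak. Of the 21 DRACH sites in this 3' UTR, 9 lay inside a peak, 7 of them in the third. The sites of the first and second peaks, AGACC and TGACT, stood 79 nt and 223 nt past the stop codon, near the downstream end of each peak. The short isoform Fasl-202, with 69 codons, held the first peak whole and 13 nt of the second, so the isoform that carried these fragments cannot be told apart there. These were also the 2 peaks, of the 10 in 3' UTRs, with a centre within 200 nt of the stop codon, where 21.1% of all 3' UTR peaks lay.

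Tnfsf10 encodes TRAIL, the ligand used by liver and activated NK cells in particular. Its gene (ENSMUSG00000039304) runs along the plus strand of chromosome 3 from 27317028 to 27342427, and the transcript Tnfsf10-201 has 4993 nt with a 3' UTR of 3998 nt. Tnfsf10 peak 1 (27339340 to 27339400) was enriched 1.61-fold at a log10 p of -2.48. Tnfsf10 peak 2 (27339459 to 27339579) was enriched 1.9-fold at a log10 p of -2.78. Both lay at the far end of the message, 3673 to 3733 nt and 3792 to 3912 nt past the stop codon, the second only 86 nt before the transcript ends.

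The Tnfsf10 peaks were poor in G and C, with 19.7% and 24.8% GC, the lowest of the 15. No DRACH site was in the first, a length class in which 70.1% of 1700 peaks held at least 1, and a single AGACA was in the second. Of 77 DRACH sites in the Tnfsf10 3' UTR, 1 lay in a peak, and the peaks covered 4.55% of it. The ligands thus differed in where their peaks stood: the first Fasl peak began 23 nt from the stop codon and those of Tnfsf10 began 3673 nt from it.

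**Figure D2:**
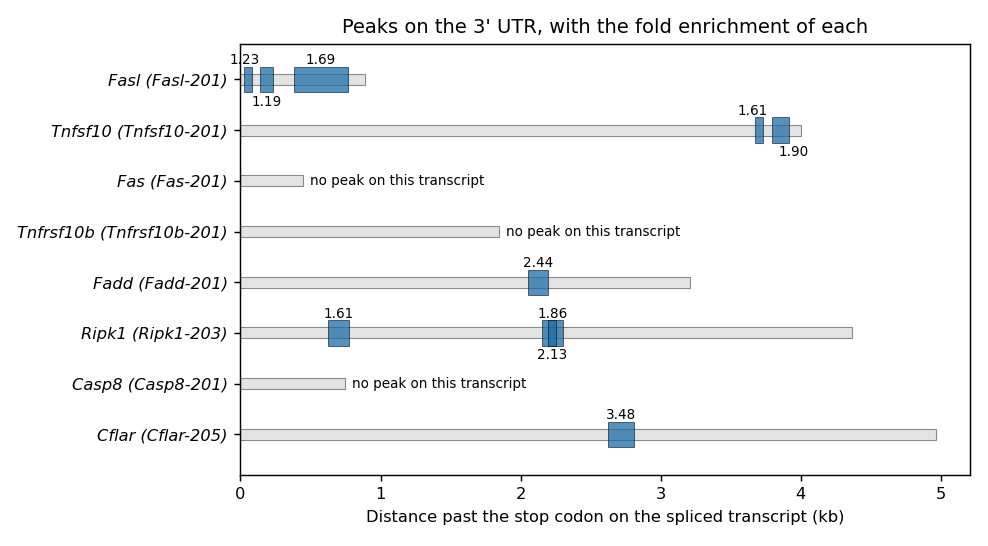
The 3' UTR of the longest coding transcript of each of the 8 genes (grey bars, 1 row per gene) with the 10 peaks centred there (blue bars, numbers give the fold enrichment) by distance past the stop codon in kb (horizontal). The Fasl peaks fill 60.9% of its 887-nt 3' UTR, while those of Tnfsf10, Fadd, Ripk1 and Cflar cover 3.65% to 6.92% of 3' UTRs of 3211 to 4962 nt.

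Fas encodes the receptor for Fasl. It lies on the plus strand of chromosome 19 (ENSMUSG00000024778, 34290666 to 34327772), and its transcript Fas-201 has 1481 nt in 9 exons and 327 codons. Its single peak (34309180 to 34309298, 119 nt) was enriched 19.0-fold at a log10 p of -4.34, the largest fold of the 15, above 87.4% of all peaks. The peak did not touch Fas-201, in which it lay in intron 2. It lay whole in exon 3, the last, of the short isoform Fas-202, which has 532 nt and 63 codons, 137 to 255 nt past the stop codon of that isoform. It held 6 DRACH sites, or 50.4 per kb, against a median of 2 sites in peaks of like length. No other gene's transcript matched its sequence. The 3' UTR label of the list holds for Fas-202 and not for the message that encodes the full receptor, and 3 other peaks of the list carried the same fold and p-value.

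Tnfrsf10b, which encodes the mouse TRAIL receptor, had no peak. The gene (ENSMUSG00000022074) covers chromosome 14 from 69767472 to 69784411 on the plus strand, and no peak of any gene overlapped it. The nearest was in Rhobtb2, 20746 nt away, with a fold enrichment of 19.0, followed by Chmp7 at 50054 nt and Pebp4 at 56009 nt. The transcript Tnfrsf10b-201 holds 74 DRACH sites, 37 of them in its 3' UTR of 1845 nt. The list gives no input level, so a message without the mark and a message with too few reads cannot be told apart for Tnfrsf10b. Of the 2 ligand and receptor pairs, Fasl and Fas both had a peak, while in the other pair Tnfsf10 had a peak and Tnfrsf10b had none. The Fas peak lay only on the short Fas-202, so neither Fas-201 nor Tnfrsf10b-201 had a listed peak.

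Fadd encodes the adaptor that joins the death domain of the receptors to caspase-8. On the minus strand of chromosome 7 (ENSMUSG00000031077, 144577318 to 144582463) its transcript Fadd-201 has 3903 nt in 2 exons, 205 codons and a 3' UTR of 3211 nt. The single peak (144578331 to 144578480) was enriched 2.44-fold at a log10 p of -3.33, with 46.7% of all peaks lower in fold. It lay 2049 to 2198 nt past the stop codon and held 1 DRACH site of the 68 in the 3' UTR, where peaks of like length had a median of 3. The antisense gene Faddos spans the region without an exon there, and the list states no strand.

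Ripk1 encodes the kinase that acts downstream of death receptors. Its gene (ENSMUSG00000021408) lies on the plus strand of chromosome 13 from 34002363 to 34037147, and Ripk1-203, its longest coding transcript, has 6472 nt in 11 exons, 656 codons and a 3' UTR of 4365 nt. Ripk1 peak 1 (34033409 to 34033559) lay 627 to 777 nt past the stop codon and was enriched 1.61-fold at a log10 p of -7.75, the second strongest significance of the 15. It also lay in the shorter isoform Ripk1-201, 118 nt before its end. It held no DRACH site, which 92.2% of 1391 peaks of like length did.

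The other Ripk1 peaks were nested. Ripk1 peak 2 (34034934 to 34035084) was enriched 1.86-fold at a log10 p of -2.9, and Ripk1 peak 3 (34034979 to 34035036) inside it was enriched 2.13-fold at a log10 p of -2.94. They share bases and so are not separate evidence of a methylated stretch. The larger held 7 DRACH sites, 1 of them with GGAC, and 3 of the 7 also lay in the smaller. The processed pseudogene Gm17084 (34034526 to 34035036, same strand) is annotated within this 3' UTR. It took in 103 of the 151 nt of the larger peak, and its last base was the last base of the smaller, so reads of the gene and the pseudogene cannot be told apart there.

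Caspase-8 is the protease that starts the cascade at death receptors. Casp8 (ENSMUSG00000026029) lies on the plus strand of chromosome 1 from 58795374 to 58847503, and its transcript Casp8-201 has 2585 nt in 9 exons and 480 codons. Both of its peaks lay in intron 1 and overlapped 0 nt of any annotated Casp8 exon, which held for 3.11% of the peaks of protein-coding genes. Casp8 peak 1 (58798051 to 58798110) was enriched 3.79-fold at a log10 p of -1.31, near the weakest significance in the list, with 98.4% of all peaks stronger. Casp8 peak 2 (58800790 to 58801623) was enriched 15.2-fold at a log10 p of -2.91, the second highest fold of the 15. Of these, the second was also 1 of the peaks past a fold of 5, and 17.7% of such peaks in protein-coding genes overlapped no exon of a coding isoform. The message encoding caspase-8 had no listed peak on an exon.

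Both Casp8 peaks lay on Gm37760 (58797783 to 58801623), a same-strand annotation of 3841 nt in a class that GENCODE leaves to be experimentally tested, and the second ended at the last base of it. Their fold and p-value pairs were widely shared, the first with 198 other peaks of the list and the second with 225, where 14.0% of all peaks shared theirs with at least 100. Repeat sequence filled 100% of the first and 46.9% of the second, as soft-masked bases of the genome. The first matched transcripts of 281 other genes and the second those of 1792, the longest match being 234 nt at 87.2% identity in Cxcr2. How reads from repeats were assigned is not given in the sources used here, and the part of such reads in these values was not tested. The second held 16 DRACH sites, or 19.2 per kb, equal to the median of 16 in peaks of like length, and the first held none.

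Cflar encodes c-FLIP, which holds caspase-8 in check. It lies beside Casp8 on chromosome 1 (ENSMUSG00000026031, 58711508 to 58758884, plus strand), and the longest coding transcript, Cflar-205, has 6572 nt in 10 exons, 481 codons and a 3' UTR of 4962 nt. Cflar peak 1 (58716683 to 58716773) was enriched 2.47-fold at a log10 p of -2.76, and lay only in Cflar-213, an isoform that keeps an intron. Cflar peak 2 (58722827 to 58723006) was enriched 2.05-fold at a log10 p of -3.7, and lay in exon 2 of Cflar-207, a transcript with no coding sequence. Both were in intron 1 of Cflar-205, and with the Casp8 peaks they made 4 of 15 that overlapped no exon of a protein-coding isoform, against 9.85% of the peaks of protein-coding genes. They held 4 and 6 DRACH sites, 44.0 and 33.3 per kb, above the medians of 2 and 3 in peaks of like length.

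Cflar peak 3 (58756548 to 58756728) was the only 1 of the 3 on coding message. It lay 2626 to 2806 nt past the stop codon of Cflar-205 and was enriched 3.48-fold at a log10 p of -6.46, the highest fold among the 10 placed peaks. It held 7 of the 105 DRACH sites of the 3' UTR. Of its 181 nt, 171 were soft-masked repeat, and it matched transcripts of 3005 other genes, the longest match being 105 nt at 82.9% identity in Dnase2a. With Casp8 peak 1 it was 1 of 2 peaks of the 15 that were at least 50% repeat, against 7.92% of all peaks with spans up to 1000 nt.

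**Figure D3:**
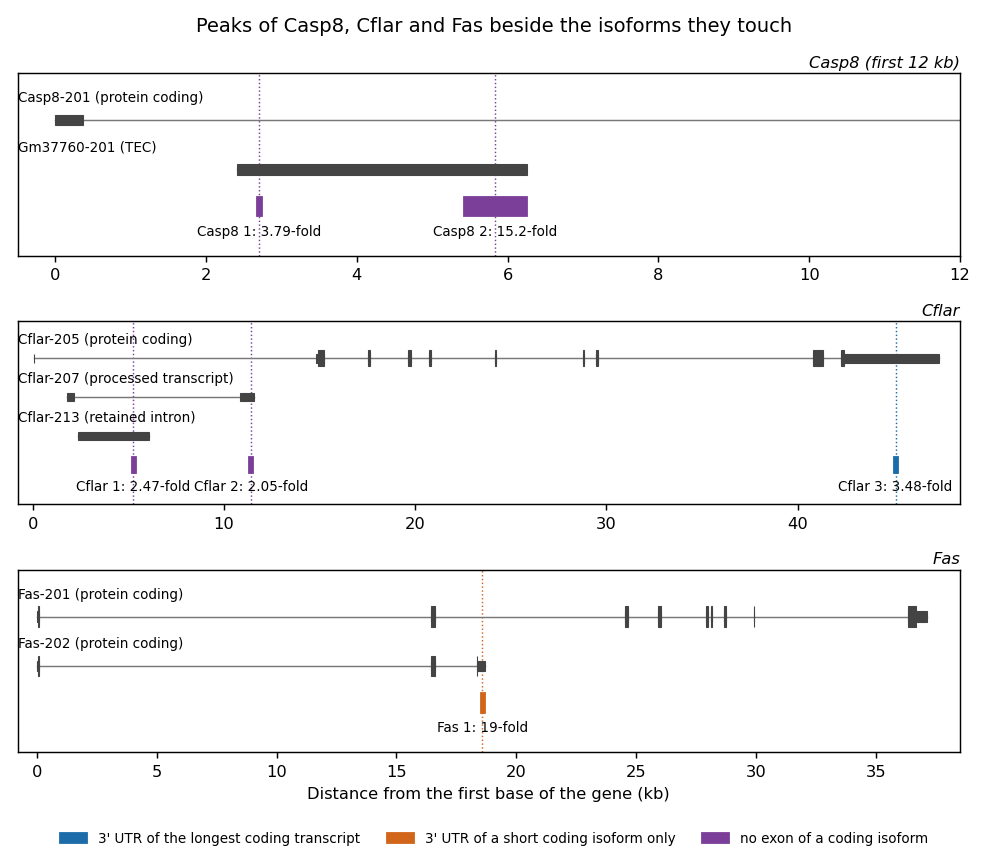
Peaks (coloured bars, labelled with the fold enrichment) of Casp8, Cflar and Fas under annotated isoforms, with dark boxes for exons, lines for introns and distance from the first base of the gene in kb (horizontal). The Fas peak sits on the last exon of Fas-202, both Casp8 peaks sit on Gm37760 inside intron 1, and of the 3 Cflar peaks the third lies on the 3' UTR of Cflar-205.

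The 10 placed centres were spread widely along the 3' UTRs of the 5 genes. Their median distance from the stop codon was 2174.5 nt, ranging from 53 to 3852 nt, and the median over the 8885 peaks centred in any 3' UTR was 715.5 nt. The 3 Fasl peaks and Ripk1 peak 1, at 53 to 702 nt, were below that median, and the 6 others, of Tnfsf10, Fadd, Ripk1 and Cflar, were above it. Tnfsf10, Fadd, Ripk1 and Cflar have long 3' UTRs, of 3211 to 4962 nt, and only Fasl, with 887 nt, is short, so the distances are a description of these messages and carry no test.

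DRACH sites had about the density in these peaks that they had elsewhere. The 10 placed peaks held 28 sites in 1413 nt, or 19.8 per kb with the nested Ripk1 bases counted 2 times, against 20.2 per kb over all placed peaks and 20.3 per kb over those in 3' UTRs. Of the 10, 8 held at least 1 site, and 90.0% of all placed peaks did. GGAC was rarer, with 1 site or 0.708 per kb, against 4.03 per kb over all placed peaks and 3.27 per kb in 3' UTRs. Over all 15 peaks there were 57 distinct sites, 3 of them with GGAC (in Ripk1, Casp8 and Cflar), and 3 peaks (Tnfsf10 peak 1, Ripk1 peak 1 and Casp8 peak 1) held none. A match to the consensus is a description of the sequence and does not show which adenosine carried the mark.

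The rest of the pathway was read from a list of 52 genes. Of these, 37 had a peak (71.2%) and 15 had none, where 46.3% of all annotated protein-coding genes had a peak. The counts by group below stand against that same share. The 79 peaks of the 37 genes had a median fold enrichment of 1.92, near the 2.05 of the 15 peaks above and below the 2.66 of all peaks. A peak with a fold of at least 5 was found in 13 of the 37 genes (35.1%), against 43.4% of all protein-coding genes with a peak. For 8 of these 13 the highest peak was labelled 5' UTR, for 4 it was labelled 3' UTR and for 1 exon. Of all peaks past that fold 29.1% were labelled 5' UTR. That share counts every such peak of genes of any type, and not the highest peak per gene, so the 2 are not like for like. The 2 members past that fold, Fas and Casp8, were labelled 3' UTR and exon. The values given below are those of each gene's peak with the highest fold. Of the genes named there, some had a more significant peak at a lower fold. Its log10 p was -36.1 in Tab2, -19.2 in Casp2, -8.7 in Tnfrsf1b and -7.83 in Daxx. The fold and p-value pairs given for Lta and Daxx were each shared with many other peaks of the list.

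Among the other ligands of the TNF family 4 of 6 had a peak. Ltb, a lymphotoxin subunit, had 9.96 with a log10 p of -65.6, Lta, its partner, had 9.48 with -1.69, and Tnf had 2.1 with -16.9, while Tnfsf12 and Tnfsf15 had none. Among the other death and decoy receptors 5 of 8 had a peak. The decoy-like Tnfrsf26 reached 53.1 with a log10 p of -47.0 in its 5' UTR, Tnfrsf23 reached 5.69 with -1.64 and the TNF receptor Tnfrsf1b 1.98 with -1.86. Like Tnfrsf10b, the receptors Tnfrsf25, Tnfrsf22 and Tnfrsf11b had no peak.

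Of the adaptors and ubiquitin enzymes that work beside Fadd and Ripk1, 12 of 15 had a peak. The highest were in Cyld, a deubiquitinase, at 37.9 with a log10 p of -8.12 but off the exons of its coding isoforms, in Tab2 at 18.0 with -6.82, and in the ubiquitin ligase Birc2 at 11.4 with -2.37. Rnf31, Spata2 and Map3k7 had none. Of the necroptosis genes, the nucleic acid sensor Zbp1 reached 55.0 with -12.1 in its 3' UTR and the kinase Ripk3 2.09 with -15.8, while the effector Mlkl had no peak.

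Among the other caspases with their activators and inhibitors 9 of 12 had a peak. The caspase inhibitor Xiap reached 20.9 with a log10 p of -5.29, the apoptosome scaffold Apaf1 17.1 with -3.33 and Casp2 9.48 with -1.77, while Casp6, Bid and Dffb had none. Of the modulators of the receptor complex 5 of 8 had a peak, led by Tmbim1 at 64.5 with -41.0 in its 5' UTR, followed by Daxx at 3.32 with -1.34 and Nol3 at 3.32 with -1.69. Casp8ap2, Faim2 and Aifm1 had none. Tmbim1, Zbp1 and Tnfrsf26 thus had higher folds than Fas at 19.0, as did Cyld and Xiap.

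**Figure D4:**
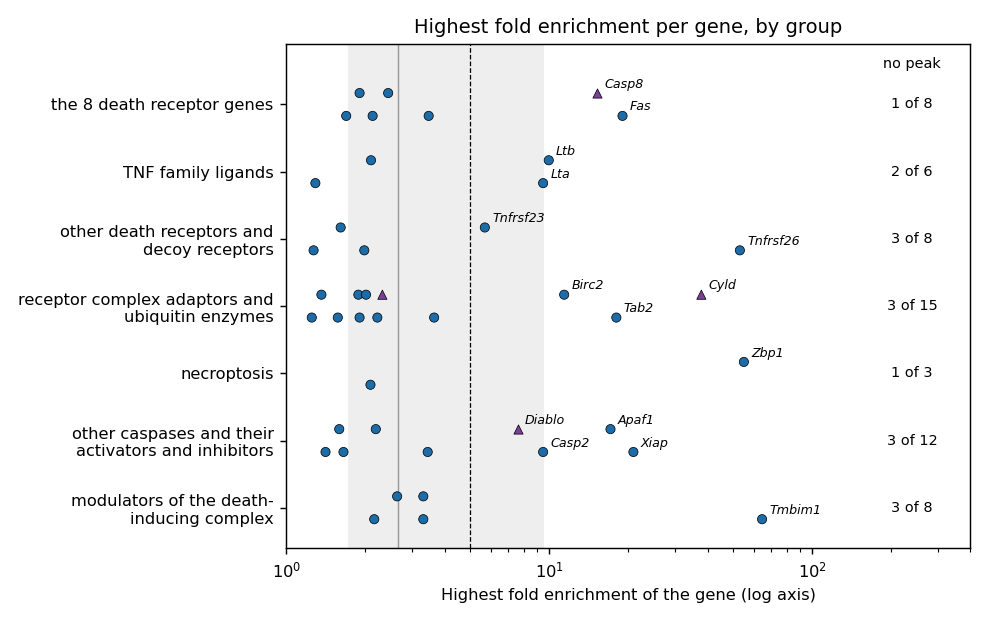
Highest fold enrichment (horizontal, log scale) of each gene with a peak in the 6 groups of the 52-gene pathway list and among the 8 named genes, 1 point per gene, with triangles for peaks off every coding exon, a grey line and band for the median and quartiles of all peaks, and a dashed line at a fold of 5. Tmbim1 at 64.5, Zbp1 at 55.0 and Tnfrsf26 at 53.1 stand highest, and Fas at 19.0 and Casp8 at 15.2 are the highest of the 7 named genes with a peak.

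The labelled cell type was read from its markers. All 10 NK cell markers had a peak, with highest folds of 1.36 in Ncr1 to 3.28 in Nkg7. Over all annotated protein-coding genes the share with a peak was 46.3%. Peaks were also listed for 5 of 5 myeloid markers, 3 of 5 T cell markers (not Cd4 or Cd8a) and 2 of 4 erythroid markers, where Hbb-bs had a log10 p of -2440. The log10 p of the myeloid markers ran from -35.3 in Adgre1 to -322 in Csf1r, and the strongest of the NK cell markers was -322 in Nkg7. The B cell genes Pax5, Cd79a and Cd79b also had a peak, with folds of 75.9, 7.59 and 2.69 and log10 p of -17.1, -9.11 and -27.6. A peak is not a level, so the share of RNA from other cells is unknown, and its part in the peaks of Fas, Fasl and the other genes was not tested.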

How the data were processed

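Per the methods, trimmed reads were aligned by the authors to GRCm38 (HISAT2), peaks were called with exomePeak and ChIPseeker gave each a gene and region. The deposited fold enrichment is a ratio of immunoprecipitate to input, and the deposited significance was read as a score, the unadjusted log10 p of peak calling, with a weakest value of -1.3. How the 2 immunoprecipitate and 2 input libraries were combined is not given in the sources used here. Of 20751 rows, 24 repeats were removed. Peaks were placed on the longest coding transcript of GENCODE M21, and 75.8% could be placed. Sequence was read from the RefSeq GRCm38 genome with pysam 0.24.0, DRACH was searched on the gene's strand, and copies were sought with BLAST 2.17.0 at an E-value of 1e-05. Soft-masked bases stand for repeats. "Like length" means within 10%. Python 3.11.15 and pandas 2.3.3 were used, and placement was checked on simulated peaks.

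The genes and lists were chosen with earlier results of these data known. From the 52 genes the text names the 3 with the highest folds in each group and every gene without a peak. The repeat and copy checks were added after the values were seen. With no value per library, no test, error or depth could be given. Some marker genes are not reported here.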

Additional observations from a re-analysis of the deposited data

How the results depend on the processing

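Recomputing the 7 main results, each under the alternative settings that apply to it, gave 31 values, of which 24 stayed within 1.5 times the main value or, for a share, within its 95% Wilson interval. Of the 7 genes with a peak, 2 were left at a fold of at least 5. Of the 15 peaks, 8 were left at a fold of at least 2, and 8 at a p-value under 0.001. The 2 peaks past a fold of 5 became 4 at a fold of at least 3, and 1 when a p-value under 0.001 was asked as well, which left Fas and dropped Casp8. Of the 37 pathway genes, 13 were left at a fold of at least 5. GGAC gave 0.708 sites per kb, against 19.8 for DRACH. Each of these follows from the stricter or looser rule itself. Leaving out peaks that were at least 50% repeat, an alternative chosen after seeing the data, left 13 peaks and 7 genes. Leaving out single libraries was not run because the list has no value per library. No paired analysis was possible because no column carries a replicate number. The unknown depth means that a gene without a peak, such as Tnfrsf10b, is only unlisted.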
